A study of Homo sapiens with 2 samples.

Results

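The genes described here encode the adaptors and kinases that carry signals from Toll-like receptors (TLRs), the interleukin-1 receptor and receptors of the TNF family: MYD88, TICAM1, TICAM2, IRAK1, IRAK2, IRAK3, TRAF1, TRAF2, TRAF3 and TRAF6. Members were the probes whose single gene symbol in the platform annotation is 1 of these 10 names. The rule found 14 probes for 9 genes, among 30113 named probes for 20046 genes. No probe carries TRAF2 as its single symbol in the annotation used here, so TRAF2 was not analysed here. The samples came from THP-1, a cell line established from a human monocytic leukaemia. In the group called shLY6E the cells stably express an shRNA (a hairpin RNA that silences a chosen mRNA) directed at LY6E, and in the group called shCtrl they stably express a scrambled hairpin, as the labels state. Both were grown under the same puromycin selection (400 ng/ml) with 10% FBS, and the labels name no TLR ligand. The labels do not say whether either derivative is 1 clone, and each group had 1 array of total RNA.

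In outline, TLRs and the interleukin-1 receptor share a cytoplasmic TIR domain, through which most of them recruit MYD88. MYD88 assembles the IRAK kinases, which hand the signal to TRAF6, a ubiquitin ligase whose chains activate the kinases TAK1 and IKK and so NF-kB. TLR3 and endosomal TLR4 use TICAM1 (TRIF) instead, with TICAM2 (TRAM) as a bridge for TLR4, and TRAF3 on that branch leads to TBK1 and interferon genes. TRAF1, TRAF2 and TRAF3 also bind TNF-family receptors, where TRAF2 and TRAF3 hold the kinase NIK in check. IRAK3 (IRAK-M) is known in monocytes and macrophages as a brake on the MYD88 branch. In a monocytic cell these adaptors set how strongly lipopolysaccharide and cytokines are read.

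On these arrays IRAK2 and TRAF3 were higher in shLY6E, by 6.52-fold and 3.59-fold. MYD88, IRAK1, IRAK3 and TRAF6 lay within 1.5-fold. TICAM2 was 1.60-fold lower, TRAF1 was detected in shLY6E only, and the 2 probes of TICAM1 gave different sizes. The sizes for IRAK2, TRAF3, TICAM2, TRAF1 and the second TICAM1 probe depended on the processing. Without background correction the log2 differences of IRAK2 and TRAF3 were 1.35 and 1.02, against 2.71 and 1.84 as reported. A fold is the ratio of shLY6E to shCtrl, or its inverse where said, after background correction and quantile normalization. Each group being a single array (n = 1), no difference could be checked in replicates or tested. The only spread to read them against was that between probes of a gene on the same 2 arrays. In the 2254 genes that had several probes detected on both, the within-gene SD of the log2 difference was 0.28. This SD holds none of the variation between cultures or repeated arrays. It also pools bright and dim probes, so it does not give the error of a difference between the groups.

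Of 47321 probes, 16378 were detected (detection p-value under 0.01) in shLY6E and 16283 in shCtrl, and the lowest detected intensity was 106 and 129. LY6E, the targeted gene, had a deposited intensity of 253 in shLY6E and 1049 in shCtrl, 3.67-fold lower after normalization. Of the 12 monocytic markers fixed for a check of the cell type, 11 had a named probe and all 11 were detected, among them SPI1, a transcription factor of the lineage (2745 and 2674), and the signalling adaptor gene TYROBP (3437 and 4132). Of 18 markers of T cells, B cells, erythroid cells and platelets, epithelium and fibroblasts, 16 had a named probe and 1 was detected, the B cell gene CD79A, in shLY6E only and at 112 near the lowest detected intensity. The summed deposited intensity over the 30 probes of those 16 genes, most of it from undetected probes, was 2832 in shLY6E and 3278 in shCtrl. In the authors' deposited table of processed intensities the same sum was 111 in shLY6E and 29.6 in shCtrl, the opposite order. Quantile normalization removed the difference in overall brightness between the arrays (median intensity 97.5 and 116); a gene with a lower deposited intensity in shLY6E can therefore have a normalized difference near 0.

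The start regions of 5 members are shown because they hold, or lack, motifs of the factors at the end of these pathways, and because IRAK2 and TRAF3, the members with the largest differences, can be set beside members that lay within 1.5-fold. Each is the 250 bases before the gene's start from RefSeq, build GRCh38.p14, written 5′ to 3′ on the gene's strand. Capitals mark a match to the kappaB consensus, the site that NF-kB binds (TRAF3, TICAM1, IRAK1), or to GAAANNGAAA, the core of the interferon-stimulated response element (MYD88). The IRAK2 region has no capitals because it holds neither.
IRAK2, chr3:10164669-10164918, plus strand: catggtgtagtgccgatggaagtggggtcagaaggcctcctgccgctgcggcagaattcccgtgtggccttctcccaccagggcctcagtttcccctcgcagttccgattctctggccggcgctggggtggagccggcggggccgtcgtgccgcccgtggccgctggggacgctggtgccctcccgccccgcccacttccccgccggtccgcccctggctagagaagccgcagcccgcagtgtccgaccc
TRAF3, chr14:102777199-102777448, plus strand: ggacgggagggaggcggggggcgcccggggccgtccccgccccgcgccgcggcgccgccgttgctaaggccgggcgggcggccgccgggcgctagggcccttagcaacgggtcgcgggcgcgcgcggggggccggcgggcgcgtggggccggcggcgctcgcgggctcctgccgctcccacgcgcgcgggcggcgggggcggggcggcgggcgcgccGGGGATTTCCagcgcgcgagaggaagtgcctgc
TICAM1, chr19:4831713-4831962, minus strand: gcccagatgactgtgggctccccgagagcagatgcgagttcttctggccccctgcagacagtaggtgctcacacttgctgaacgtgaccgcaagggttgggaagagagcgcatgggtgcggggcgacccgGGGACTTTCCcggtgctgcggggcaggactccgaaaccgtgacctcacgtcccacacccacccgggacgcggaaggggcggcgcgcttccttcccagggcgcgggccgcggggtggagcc
IRAK1, chrX:154019903-154020152, minus strand: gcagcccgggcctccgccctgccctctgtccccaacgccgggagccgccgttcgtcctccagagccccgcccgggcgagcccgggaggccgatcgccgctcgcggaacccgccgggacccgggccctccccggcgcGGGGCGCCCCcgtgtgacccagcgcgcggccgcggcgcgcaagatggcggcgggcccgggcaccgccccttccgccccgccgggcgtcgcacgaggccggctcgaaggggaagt
MYD88, chr3:38138411-38138660, plus strand: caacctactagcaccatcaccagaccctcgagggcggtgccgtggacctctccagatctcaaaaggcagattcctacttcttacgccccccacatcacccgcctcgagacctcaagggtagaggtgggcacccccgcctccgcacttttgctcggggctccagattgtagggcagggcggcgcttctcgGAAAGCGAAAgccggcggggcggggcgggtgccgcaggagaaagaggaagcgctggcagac

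Both motifs were searched on both strands in windows from 250 bases before to 50 after each start. All 10 members have at least 1 such window in the RefSeq table, 12 windows in all, since TRAF1 has several starts. The kappaB consensus was found for 3 of the 10 members, TRAF3, TICAM1 and IRAK1, against 13.3% of all 27305 genes with a window (11.3% of 35116 windows). The match in TRAF3, GGGGATTTCC, begins 33 bases before the start, and that in TICAM1, GGGACTTTCC, 120 bases before it. The match in IRAK1, GGGGCGCCCC, begins 114 bases before the start and reads the same on both strands. GAAANNGAAA was found for 1 member, MYD88, at 61 bases before the start, against 4.38% of all genes (3.57% of windows). Of the members with a kappaB match, TRAF3 was higher in shLY6E, TICAM1 read 0.24 and 1.04 on its 2 probes, and IRAK1 lay close to 0, while IRAK2, the member with the largest difference, has no match in this window. A match is a run of letters and not a bound site, and no binding was measured.

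**Figure D1:**
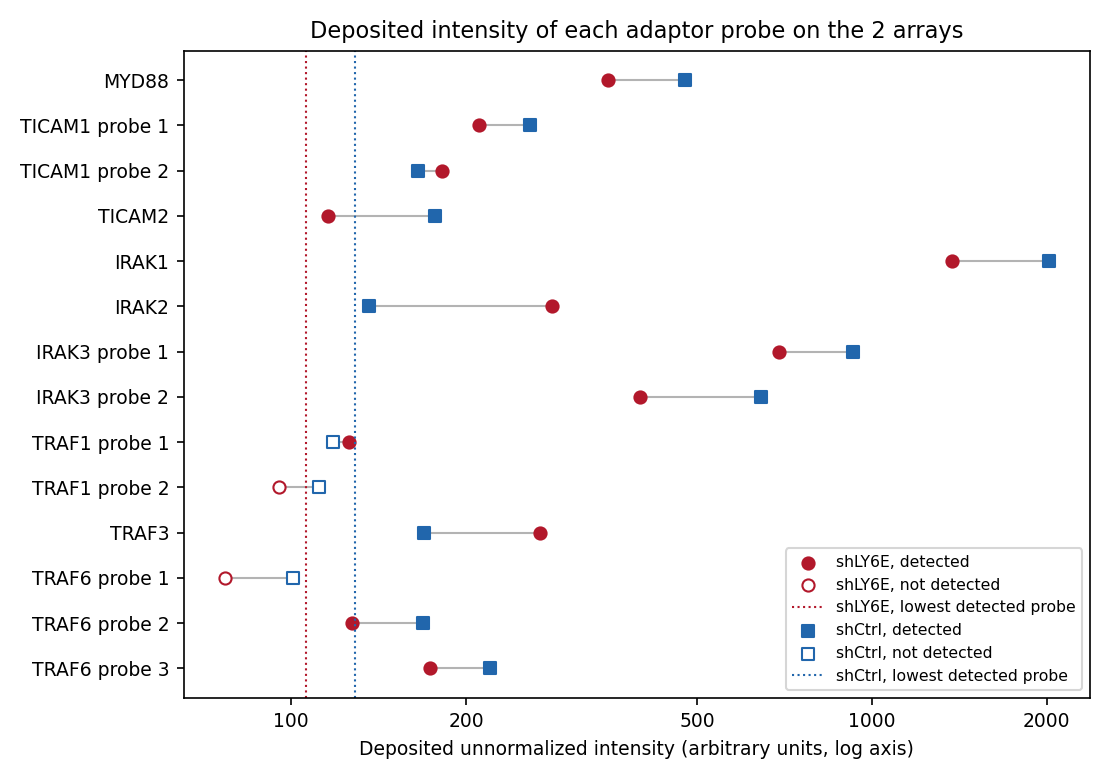
Deposited unnormalized intensity (log axis) of the 14 adaptor probes in shLY6E (circles) and shCtrl (squares), 1 array each, with open symbols for readings that were not detected and dotted lines at the lowest detected intensity of each array. IRAK2 and TRAF3 are brighter in shLY6E, at 281 against 136 and 268 against 169, while MYD88, IRAK1 and both IRAK3 probes are brighter in shCtrl before normalization.

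MYD88 encodes the adaptor that links the TIR domain of most TLRs and of the interleukin-1 receptor to the IRAK kinases. Its probe read 352 in shLY6E and 476 in shCtrl in the deposited table, and 8.43 and 8.32 on the normalized log2 scale. The difference was 0.12, or 1.08-fold, less than the within-gene SD between probes. In the authors' deposited table of processed intensities, MYD88 was 334 in shLY6E and 306 in shCtrl. Its detection p was 0 on both arrays. Of the 9364 genes detected on both arrays, 74.3% lay as far from 0 or farther.

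TICAM1 encodes TRIF, the adaptor of TLR3 and of the endosomal TLR4 branch, and was read by 2 probes of the same transcript accession. The first probe read 211 in shLY6E and 258 in shCtrl, with a normalized difference of 0.24 (1.18-fold). The second read 182 and 165, with a normalized difference of 1.04 (2.05-fold). Both probes were detected on both arrays, and both differences lay above 0, but they stood 0.80 apart on the log2 scale. A gap this wide or wider was seen in 6.43% of the 2254 genes with several probes, and the gene's mean over both probes was 0.64. The brighter probe, used for the gene here, did not pass 2-fold. The second probe passed it only narrowly and fell under it without background correction (0.49), with an offset of 50 in place of 16 added after background correction (0.75) and with the arrays scaled to the median of all probes (0.66), so passing 2-fold depended on both the probe and the processing.

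TICAM2 encodes TRAM, which bridges TLR4 to TICAM1. Its probe read 116 in shLY6E and 177 in shCtrl, and the normalized log2 values were 5.51 and 6.19. The difference was -0.68, or 1.60-fold lower in shLY6E, and 7.19% of genes detected on both arrays were as low or lower. The shLY6E reading was 1.09 times the lowest detected intensity on that array, so this value is close to the detection limit. The difference was under 1.5-fold without background correction (-0.25), with a background offset of 50 (-0.42) and with median scaling over detected probes (-0.55). In the RefSeq table TICAM2 overlaps the readthrough gene TMED7-TICAM2 and the antisense gene TICAM2-AS1, and signal of the first cannot be told apart from that of TICAM2 here. The direction opposed that of TICAM1, its partner on the same branch: the 2 genes' differences stood 0.92 apart. That TICAM1 difference, 0.24 on its brighter probe, was less than the within-gene SD between probes. With median scaling over all probes it was -0.18, on the same side of 0 as TICAM2 (-0.97), while the second TICAM1 probe was 0.66.

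IRAK1 encodes a kinase that is activated within the MYD88 complex and then binds TRAF6. Its probe read 1376 in shLY6E and 2016 in shCtrl, and 10.63 and 10.67 after normalization. The difference was -0.03, with 92.5% of genes as far from 0 or farther. At 13.0 and 15.7 times the lowest detected intensity, this probe was far from the detection limit, and its difference was also -0.03 without background correction. With median scaling over all probes its difference was -0.45, where the median of all detected genes was -0.42.

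IRAK2 encodes a member of the family that sustains NF-kB signalling and the later phase of cytokine production. Its probe read 281 in shLY6E and 136 in shCtrl, and 8.0 and 5.30 on the normalized log2 scale. The normalized difference was 2.71, or 6.52-fold higher in shLY6E. It ranked 14 among the 9364 genes detected on both arrays. The shCtrl reading was only 1.06 times the lowest detected intensity, with a detection p of 0.0026, so the size of the fold depends on the background estimate. The ratio of the deposited intensities was 2.06 before any correction, the log2 difference was 1.35 without background correction, and the ratio in the authors' deposited table of processed intensities was 9.94. All of these lay in the same direction. Next to IRAK2 in the order of differences stood IL1B (2.73), which encodes interleukin-1 beta, and ORM1 (2.81), an acute-phase protein gene with a near-identical copy that its probe may also read, above it, and GBP2 (2.69), an interferon-inducible GTPase gene, and SLC1A3 (2.58), a glutamate transporter gene, below it. This order compares 1 difference per gene over 2 arrays and says nothing more about likeness.

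IRAK3, the brake, was read by 2 probes. The brighter read 693 in shLY6E and 929 in shCtrl, with a normalized difference of 0.11 (1.08-fold). The other, annotated to a cDNA clone accession, read 399 and 645, with a difference of -0.18 (1.14-fold lower in shLY6E). The probes stood 0.30 apart on the 2 sides of 0, a gap reached or passed by 42.7% of genes with several probes. Within the IRAK family, IRAK1 and IRAK3 lay within 1.5-fold while the log2 difference of IRAK2 was 2.74 greater than that of IRAK1 and 2.59 greater than that of IRAK3. The within-gene SD between probes was 0.28, which holds no variation between cultures or repeated arrays.

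**Figure D2:**
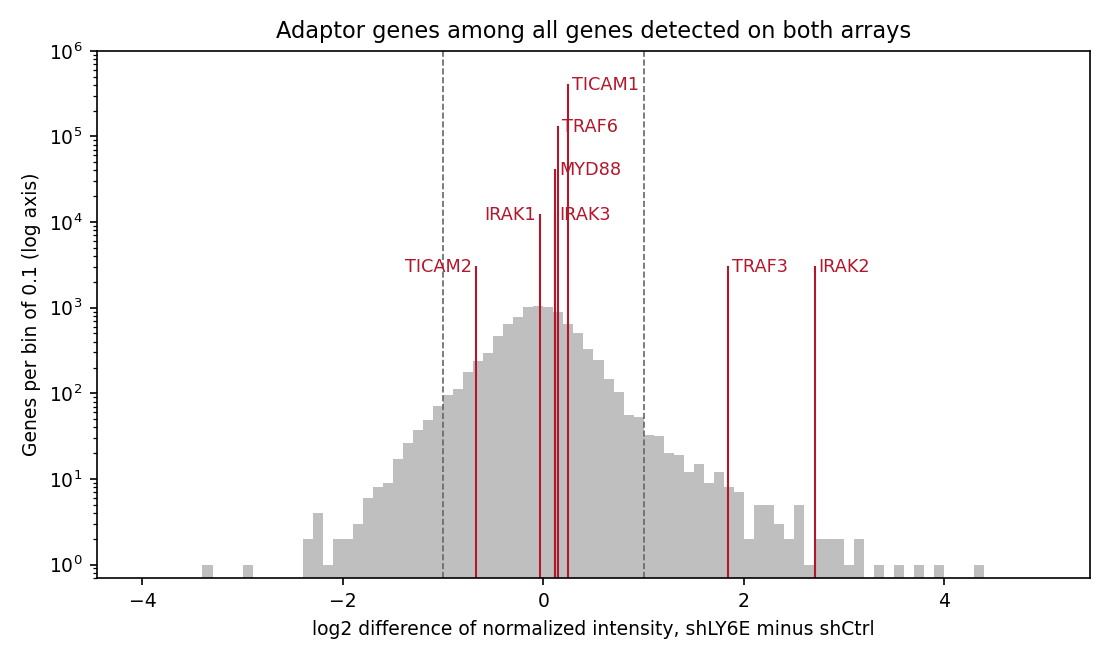
Histogram of the normalized log2 difference (shLY6E minus shCtrl) of the 9364 genes detected on both arrays, in bins of 0.1 on a log axis of counts, with a red line at each of the 8 adaptor genes detected on both. The heights of the red lines only separate the labels, and dashed lines mark 2-fold; IRAK2 and TRAF3 lie in the upper tail, and the other 6 lie inside the dashed lines.

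TRAF6 encodes the ubiquitin ligase that takes the signal from the IRAK kinases. It had 3 probes, and 1 of them, at 76.9 and 101, was detected on neither array. The brighter detected probe read 173 in shLY6E and 220 in shCtrl, with a difference of 0.14 (1.10-fold). The other detected probe read 127 and 169, with a difference of -0.12. The detected probes are annotated to different transcript accessions of TRAF6, and their gap of 0.26 was reached or passed by 48.2% of genes with several probes.

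TRAF3 encodes the ligase that leads from TICAM1 to TBK1 and that, with TRAF2, limits NIK in the noncanonical NF-kB pathway. Its probe read 268 in shLY6E and 169 in shCtrl, and 7.90 and 6.06 after normalization. The difference was 1.84, or 3.59-fold higher, and ranked 50 of 9364. The readings were 2.52 and 1.32 times the lowest detected intensity, and the detection p was 0 on both arrays. The ratio of deposited intensities was 1.58, the log2 difference without background correction was 1.02, and the ratio in the authors' deposited table of processed intensities was 4.20. The log2 difference of TRAF3 was 1.70 greater than that of TRAF6, though TRAF3 was read by 1 probe only.

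TRAF1 encodes the family member that lacks a RING domain and is known as an NF-kB target. Its brighter probe read 126 in shLY6E, where it was detected, and 118 in shCtrl, where the detection p was 0.087. Against the lowest detected level in shCtrl, TRAF1 was at least 1.75-fold higher, and the measured log2 difference was 1.21. The bound depended on the processing: as a log2 difference it was 0.81 here, 0.25 without background correction, 0.46 with an offset of 50 and 0.57 with median scaling over all probes, the last 3 of them under 1.5-fold. The ratio of the deposited intensities was 1.07. Its other probe, annotated to the same transcript, read 95.2 and 111 and was detected on neither array. The TRAF1 reading therefore rests on 1 dim probe, and in the RefSeq table the gene overlaps PHF19. IRAK2 (with LOC124906338), TRAF3 (with LOC124903426 and RNU6-1316P) and IRAK3 (with RBMS1P1 and MIR6502) also overlap other genes there.

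Of the 10 members, 9 had a probe and passed the detection filter, 8 of them on both arrays and TRAF1 through shLY6E only. At least 2-fold higher in shLY6E were 2 of the 9, IRAK2 and TRAF3, where 2.27% of all 10565 detected genes were. None (0 of 9) was at least 2-fold lower, against 2.55% of all detected genes. At 1.5-fold, 3 were higher, the bound of TRAF1 included, and 1 was lower, TICAM2, against 6.55% and 9.63% of all detected genes. Without background correction and with an offset of 50, neither TRAF1 nor TICAM2 reached 1.5-fold. The median difference over the 9 was 0.14, and over all detected genes -0.04. By probe, 3 of the 12 detected readings were at least 2-fold higher, the second probe of TICAM1 being the third, against 2.38% of named probes. The third was under 2-fold in the 3 settings named for it above.

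**Figure D3:**
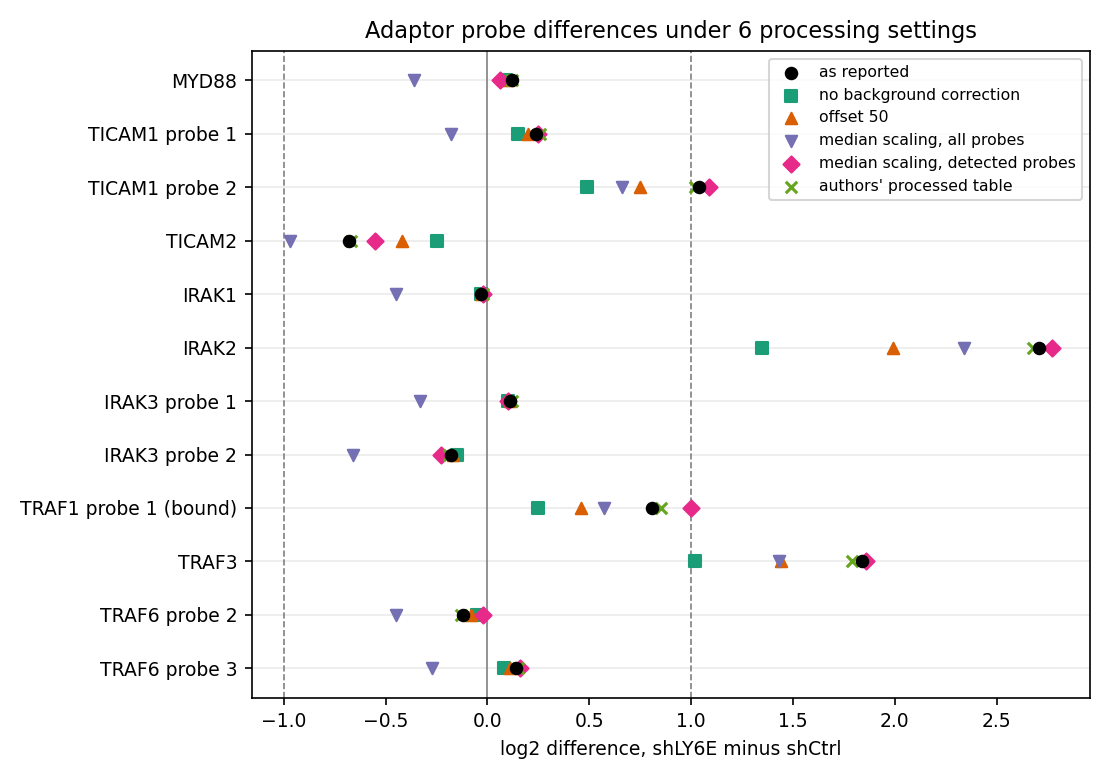
Log2 difference (shLY6E minus shCtrl) of the 12 adaptor probes detected on at least 1 array, as reported and under 5 other ways of processing. The lowest value was 1.35 for IRAK2 and 1.02 for TRAF3, and scaling to the median of all probes moved every probe down, as it did the median of all genes.

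Directions of some of the small differences depended on scaling. When the arrays were scaled to the median of all probes in place of quantile normalization, the median over all detected genes moved from -0.04 to -0.42, and MYD88 read -0.36, the brighter probes of TICAM1 and IRAK3 -0.18 and -0.33, and the brighter TRAF6 probe -0.27. Relative to the median of all genes under that scaling, MYD88 stood at 0.05, IRAK2 at 2.76, TRAF3 at 1.85 and TICAM2 at -0.56. IRAK2, TRAF3, TICAM2 and the second probe of TICAM1 kept their direction under each setting that gave them a value. So did IRAK1 and the dimmer detected probes of IRAK3 and TRAF6, whose differences were small. Keeping a direction therefore did not set the larger differences apart. TRAF1 is left out here, because the bound of a gene detected in shLY6E only is built to lie near or above 0.

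The other genes of the pathway were counted in 4 lists. Among receptor-proximal partners, 7 of 9 were detected. None (0) was at least 2-fold higher and 1 was lower by that much (median -0.20), against 2.27% and 2.55% of all detected genes. The count of lower genes was 0 without background correction, with an offset of 50 and when each gene's probes were averaged. Of all detected genes, 0.521%, 1.22% and 2.27% were that much lower in these settings. The list's median was 0.07 with median scaling over detected probes. The lower gene, IRAK1BP1, which encodes a protein that binds IRAK1, read 146 in shLY6E and 298 in shCtrl, 2.07-fold lower, while the bound from its second probe was -0.28. PELI1, a ubiquitin ligase of IRAK proteins, was 1.79-fold higher, with near-equal deposited intensities of 160 and 158, and its relative PELI2 was 1.32-fold lower. SARM1, a TIR-domain protein, was detected on neither array, and IRAK4 has no probe under its own symbol in the annotation used here.

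Among the 15 TRAF relatives and partners, 13 had a probe (RIPK1 and BIRC3 had none under their own symbols in the annotation used here) and 12 were detected. At least 2-fold apart in either direction were 0, with a median of 0.05, where 2.27% of all detected genes were that much higher and 2.55% that much lower. TANK, a TRAF-binding scaffold of TBK1 and IKBKE, was 1.71-fold higher. SQSTM1 (p62), which binds TRAF6 and ubiquitin chains, was 1.47-fold higher, at 3442 against 3176. TRAF3IP2 (Act1), the adaptor of interleukin-17 receptors, was 1.55-fold lower. With median scaling over all probes the median was -0.33 and 1 gene was at least 2-fold lower, against 8.6% of all detected genes. TRAF5, a family member close to TRAF3, was detected on neither array by any of its probes.

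Among downstream kinases, ubiquitin-conjugating enzymes and interferon regulatory factors, 19 of 22 were detected, 2 were at least 2-fold higher and 0 lower, against 2.27% and 2.55% of all detected genes, with a median of 0.04. IKBKE, the inducible kinase that works beside TBK1, read 441 and 337 and was 2.23-fold higher. UBE2V1, the partner of UBE2N in making the ubiquitin chains of TRAF6, was 2.04-fold higher on its detected probe, which may also read close relatives of this gene. IRF7, a transcription factor of the interferon response, was 1.63-fold lower, and its other detected probe gave -0.91. Without background correction 0 of these genes reached 2-fold upward, with an offset of 50 there was 1, and with median scaling over all probes 0 were higher, 2 were lower and the median was -0.42, that of all genes. Of all detected genes, 0.814%, 1.36% and 1.23% were 2-fold higher in these settings, and 8.6% were 2-fold lower with median scaling.

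The list of ubiquitin editors and brakes held the largest difference among the 4 lists. Of 21 genes, 17 were detected, with a median of 0.28. A difference of 1.5-fold or more upward was found for 4 of them, 2 of which passed 2-fold, and 1 was lower by 1.5-fold or more. Of all detected genes 6.55% were 1.5-fold higher, 2.27% 2-fold higher and 9.63% 1.5-fold lower. With median scaling over all probes, 1 gene of the list passed 2-fold upward, against 1.23% of all detected genes, and the list's median was -0.14. TNFAIP3 (A20), which edits ubiquitin on RIPK1 and TRAF6, read 443 in shLY6E and 212 in shCtrl and was 4.51-fold higher. ZC3H12A (regnase-1), a ribonuclease that degrades inflammatory mRNAs, read 401 and 269 and was 2.74-fold higher. TNIP2, a TNFAIP3-binding protein, was 1.59-fold higher. Both TNFAIP3 and ZC3H12A are known as NF-kB-induced feedback genes, and they were put on the list with earlier results of these data known.

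**Figure D4:**
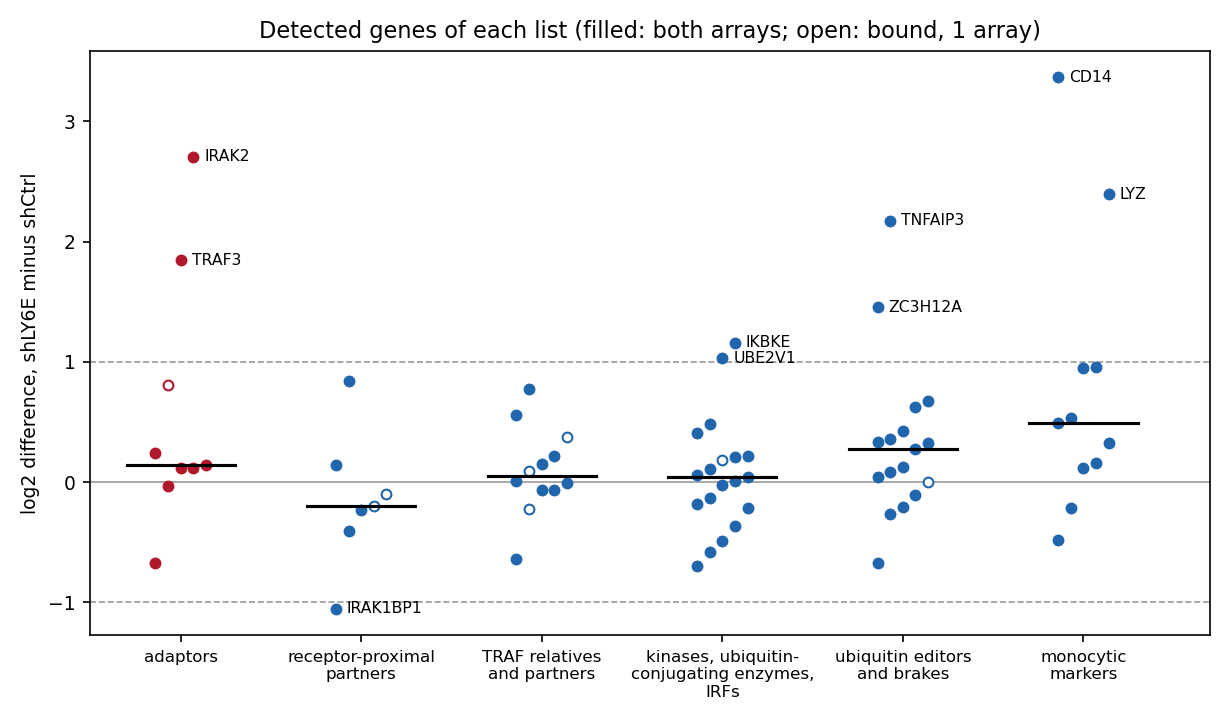
Log2 difference (shLY6E minus shCtrl) of each detected gene in the adaptor list, the 4 pathway lists and the monocytic markers, with black bars at the list medians, open circles for bounds of genes detected on 1 array and names for genes at least 2-fold apart. The adaptor and pathway medians lie between -0.20 and 0.28 and most of their genes lie inside the dashed 2-fold lines, while the median of the monocytic markers is 0.50.

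As a list, markers of the monocytic lineage lay on the same side of 0 as IRAK2 and TRAF3. Their median was 0.50, with 9 of the 11 detected above 0 and 2 below, where 4775 of all 10565 detected genes lay above 0. At least 2-fold higher were 2 of the markers while 0 were that much lower, against 2.27% and 2.55% of all detected genes. CD14, the lipopolysaccharide co-receptor, stood at 3.36 and LYZ, which encodes lysozyme, at 2.39. The CD14 reading in shCtrl was 1.185 times the lowest detected intensity. Its other probe, detected in shLY6E only, gave a bound of 2.33, and the other LYZ probe gave 1.36. The 2 genes below 0 were ITGAM at -0.48 and CD68 at -0.22, with the other CD68 probes at 1.68 and -0.19. The summed processed intensity over the 18 probes of the list was 28010 in shLY6E and 19000 in shCtrl in the authors' deposited table, and the summed deposited intensity before normalization was 23820 and 22900. In bulk RNA, a change in the number of cells of a kind and a change in RNA per cell cannot be told apart, and the part of the monocytic markers in the differences of IRAK2 and TRAF3 was not tested. No member lies on chromosome 10, whose detected genes had a median of -0.72, and leaving out the 2 chromosome 10 genes of the pathway lists left their list's median at 0.04. Whether the chromosome 10 difference between the groups has a part in the differences of genes elsewhere was not tested.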

How the data were processed

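Each of the 2 groups, taken from the sample titles, had 1 single-colour Illumina array. The deposited unnormalized table gives, per the file headers, each of 47321 probes a linear intensity and a detection p-value per array, and the deposited p-values move in steps of 1 in 770. A second deposited table holds the authors' processed intensities, which from their values are linear, background-subtracted and on a common distribution (median 6.14 in both columns, 25.5% below 0). The sources used here do not give how the authors scanned and normalized the arrays.

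Intensities were background-corrected with normexp through the detection p-values (offset 16), quantile-normalized and log2-transformed (limma 3.58.1, R 4.3.3). Later steps used Python 3.11.15, numpy 2.4.6, pandas 2.3.3 and matplotlib 3.10.9. The platform annotation named 30113 probes with 1 gene symbol, 8 with several and left 17200 unlisted; 30074 of the named probes matched the RefSeq table of GRCh38.p14 by Entrez ID. A gene was read by its detected probe with the highest mean log2 intensity. The steps were tested on simulated arrays. Known changes were placed there only in probes well above background. Folds of probes that start near the detection limit, as IRAK2 does in shCtrl, were therefore not covered.

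The members and the gene lists were chosen with earlier results of these data known. The rule for named genes took every probe of the 10 members, LY6E, the 3 largest differences and all of at least 2-fold in each of 4 pathway lists, and the 2 genes on either side of the highest member in the order of differences. Besides these, CD14, LYZ, ITGAM, CD68, SPI1, TYROBP and CD79A are named from the marker lists. The 9 alternatives set at the start and the 2 added after seeing the data are in the closing section.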

Additional observations from a re-analysis of the deposited data

How the results depend on the processing

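The 9 settings fixed at the start were no background correction, median scaling instead of quantile normalization, offset 50, detection at p under 0.05 or on both arrays, all genes without a detection filter, a mean of each gene's probes, the authors' processed table, and measured differences instead of bounds. Median scaling over detected probes, and leaving out chromosome 10, were added after seeing the data. A value was counted as moved when it changed by more than the within-gene SD between probes (0.28), and a count when it changed by more than 1.5 times. Of 246 values, 210 stayed within these limits, 36 moved, and 0 of the differences of at least 1.5-fold changed sign. Many of the 210 could not have moved, so this tally is no measure of robustness. For a probe detected on both arrays, the settings that change only detection or bounds return the same value. Leaving out chromosome 10 could change only the list of downstream genes. The sign of the TRAF1 bound was also largely fixed by how bounds are set. IRAK2 stood at 1.35 without background correction, 1.99 with offset 50 and 2.34 with median scaling, and TRAF3 at 1.02, 1.44 and 1.43. With median scaling over detected probes IRAK2 and TRAF3 stood at 2.77 and 1.86. In that setting 3 members were at least 2-fold higher, TRAF1 being the third, against 2.5% of all detected genes. The count was also 3 with detection at p under 0.05, without a detection filter, and with measured differences instead of bounds. Of all genes read in these settings, 2.17%, 1.38% and 2.62% were that much higher. TRAF1 stood at 1.11 with detection at p under 0.05 and at 1.21 with measured differences. Without background correction and with offset 50, 0 receptor-proximal partners were at least 2-fold lower, as with the mean over probes, and 0 and 1 downstream genes were at least 2-fold higher. Of all detected genes, 0.521% without background correction, 1.22% with offset 50 and 2.27% with the mean over probes were 2-fold lower. Those 2-fold higher were 0.814% without background correction and 1.36% with offset 50. With median scaling, which moved the median of all genes to -0.42, the medians were -0.33 for TRAF relatives, -0.42 for downstream genes and -0.14 for ubiquitin editors, the counts at least 2-fold lower were 1, 2 and 1, and those higher were 0 for downstream genes and 1 for ubiquitin editors. Offset and lack of background correction shrink differences by construction; otherwise the cause was not tested. Signal over background limits IRAK2, TICAM2, TRAF1, TRAF3, the second probe of TICAM1 and the dimmer probe of TRAF6. No paired analysis was possible because there was a single array in each group.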
